A study of Homo sapiens with 8 samples.

Results

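Expression on the arrays was followed for 8 genes of the caspase pathway, namely the proteases CASP1, CASP2, CASP6, CASP8, CASP9 and CASP10, and the platform proteins APAF1 and PIDD1. They were found by matching the transcript accession of each probe, or its gene symbol or alias, and they made up 8 of 20296 genes with a probe and 12 of 42391 probes. Where a gene had several probes, its value came from the one with the highest mean over all arrays. RNA came from MCF10A, a line of mammary epithelial cells that does not form tumours, in a p53+/+ form and in a p53-/- derivative. Cells of each genotype were taken untreated (0 h), or 12, 24 or 48 h following adriamycin (ADR, the doxorubicin of the labels), a drug that breaks DNA. The sample labels give 0.5 µg/ml for 2 h, whereas the methods text of the study gives a higher dose. Each of the 8 combinations of genotype and time was hybridised to 1 single-colour Agilent array, so no value has a replicate error. Neither the labels nor the methods say where the p53 deletion lies or whether the p53-/- cells are 1 clone. All 8 arrays lay on 1 slide, with p53-/- in its first column and p53+/+ in its second, so genotype and slide position cannot be told apart.

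Caspases are cysteine proteases made as inactive precursors. Initiator caspases are activated by gathering on a platform: CASP9 on the apoptosome, a ring of APAF1 that forms when cytochrome c leaves mitochondria, CASP2 on the PIDDosome, built by PIDD1 through the adaptor CRADD, and CASP8 and CASP10 on death receptors through FADD. They then cut executioners such as CASP6, while CASP1 belongs to the inflammasome and matures the cytokines IL1B and IL18. Several of these genes, PIDD1, APAF1, CASP1, CASP6 and CASP10 among them, are known from earlier work as transcriptional targets of p53, and the activity of a caspase is set by cleavage, which an RNA level does not measure.

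The upstream sequence of the 3 members whose difference or change between genotypes the results turn on most, and for which a sequence was at hand, is shown first. RefSeq promoters (GRCh38.p14) were found for 6 of the 8 members, 10 start sites in all. Each line gives the 250 bases before the gene start, 5′ to 3′ in the direction of the gene, and capitals mark the GC box GGGCGG on either strand, where overlapping boxes run together. PIDD1 lies at chr11:805232-805481 on the minus strand, CASP2 at chr7:143288101-143288350 on the plus strand and APAF1 at chr12:98645040-98645289 on the plus strand.

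PIDD1: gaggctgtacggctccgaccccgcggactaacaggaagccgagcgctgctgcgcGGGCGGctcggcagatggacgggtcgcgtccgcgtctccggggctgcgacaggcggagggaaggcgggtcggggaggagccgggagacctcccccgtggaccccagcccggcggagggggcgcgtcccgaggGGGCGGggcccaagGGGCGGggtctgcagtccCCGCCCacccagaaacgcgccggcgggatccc

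CASP2: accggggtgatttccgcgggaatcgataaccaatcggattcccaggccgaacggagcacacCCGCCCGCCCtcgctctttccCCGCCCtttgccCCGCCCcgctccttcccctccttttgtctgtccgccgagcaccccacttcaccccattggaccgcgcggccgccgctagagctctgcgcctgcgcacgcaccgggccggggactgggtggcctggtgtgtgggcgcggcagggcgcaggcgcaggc

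APAF1: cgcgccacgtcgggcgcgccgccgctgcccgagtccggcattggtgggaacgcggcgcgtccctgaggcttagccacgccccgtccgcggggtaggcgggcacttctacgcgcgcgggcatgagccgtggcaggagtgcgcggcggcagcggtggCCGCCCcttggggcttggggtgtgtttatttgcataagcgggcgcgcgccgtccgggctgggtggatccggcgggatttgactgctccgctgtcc

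These stretches were 77.6% G and C in PIDD1, 71.2% in CASP2 and 73.6% in APAF1, against a median of 58% over 35116 promoters. In windows of 300 bases, which reach 50 bases past the gene start, the GC box had 4 matches in PIDD1, 4 at the CASP2 start site shown (0 at its other one) and 1 in APAF1, and 45.0% of all promoters held at least 1. The p53 half-site, the 10-base pattern to which p53 binds in pairs, was searched on the same windows, where 6.63% of all promoters held 1 or more. It was found at 1 of 2 start sites of CASP9 and at 1 of 3 of CASP8, and these 30-base stretches are given with the half-site in capitals. That of CASP9 lies at chr1:15524959-15524988 on the minus strand and begins at -188 from the gene start, and that of CASP8 lies at chr2:201257904-201257933 on the plus strand and begins at -121.

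CASP9: cggtggcacgAGGCTAGCCCttgggggcgg

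CASP8: ctttccaataAAGCATGTCCagcgctcggg

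No half-site lay in the windows of PIDD1, APAF1, CASP2 or CASP6. The search covered only these letters in these windows, and a match is a description of sequence.

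Levels are log2 processed signals relative to the 75th percentile of their array, so that 0 is the 75th percentile and each unit is a 2-fold step. The genotype label of the array given as p53+/+ 0 h is in doubt. The array is called by its label throughout, changes from it are given together with changes from the p53-/- 0 h array, and the comparison of the treated arrays does not use it. CDKN1A, the p53 target that halts the cell cycle, read -1.14 on the labelled p53+/+ 0 h array, then 2.54, 2.63 and 2.70 after ADR, against -2.97, -0.96, -0.64 and -0.48 in p53-/- cells. MDM2, which degrades p53, read -1.66 on the labelled p53+/+ 0 h array and 1.29 to 1.76 in treated p53+/+ cells, against -1.33 at 0 h and -2.04 to -1.33 after ADR in p53-/- cells. At 0 h the labelled p53+/+ array was thus above the p53-/- array for CDKN1A and below it for MDM2.

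The arrays differed in other ways along the genotypes. The 75th percentile of the signal was 661 to 818 on the treated p53+/+ arrays and 1118 to 1199 on the treated p53-/- arrays, between 49.8 and 62.9% of probes were well above background, and none of 10 spike-in probes was well above background on the p53+/+ 48 h array, where the other 7 arrays each had 6. Of 9 markers of basal mammary epithelium, 8 were well above background on all 8 arrays, all but TP63. Their mean log2 level was 2.37 to 4.18 in p53+/+ cells and 2.16 to 2.53 in p53-/- cells, the 0 h arrays included. CDH1 read 1.42 to 2.10 in treated p53+/+ and -3.30 to -0.94 in treated p53-/- cells. At 0 h it was low on both arrays, at -3.13 on the labelled p53+/+ array and -3.55 on the p53-/- array. Markers of blood (2 of 3 on all 8 arrays), endothelium (1 of 2) and fibroblasts (1 of 4) had mean levels of at most -2.01, with COL3A1 well above background on no array. Single markers stood apart from these means: CD14 read 0.78 to 2.59 over the 8 arrays. PECAM1 (-2.22 to -1.59) and COL1A1 (-3.35 to -2.92) were well above background on the treated p53-/- arrays and not on the treated p53+/+ arrays. Both were also well above background on both 0 h arrays. There PECAM1 read -2.39 on the labelled p53+/+ array and -2.05 on the p53-/- array, and COL1A1 read -3.21 and -2.31. The part that any of these takes in the results was not tested. In bulk RNA, fewer cells that make a transcript and less of it per cell cannot be told apart.

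Over the 6 treated arrays, PIDD1 and CASP1 were higher in p53+/+ than in p53-/- cells and CASP2 was lower. PIDD1 differed by 2.34 ± 0.28 (log2, SE, 5.08-fold), CASP1 by 1.21 ± 0.28 (2.31-fold) and CASP2 by -1.23 ± 0.16 (2.34-fold lower), with 3 arrays per genotype. These 3 of 8 members passed limma's test at an adjusted p of 0.05, where 17.9% of the 28490 probes tested did. By direction it called 10.4% of all probes higher and 7.48% lower in p53+/+ cells, against 2 and 1 of the 8 members. The time points stand in for replicates in this fit, so its p-values set a genotype difference against movement over time, not against the spread of separate cultures. The members' median difference was 0.24, and that of all probes was 0.09. Because the scaling sets where 0 lies, this last value became -0.51 without scaling and -0.63 with spike-in scaling.

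**Figure D1:**
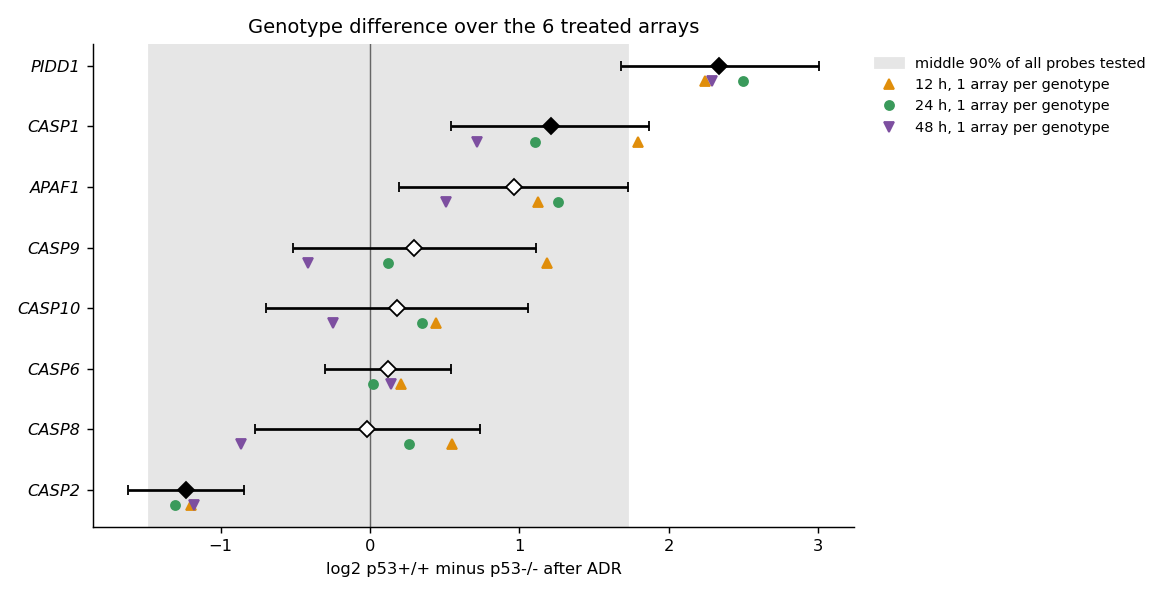
Each row is a member, and the x axis is the log2 level in p53+/+ minus p53-/- cells after ADR. Diamonds are limma's estimates over the 6 treated arrays with 95% intervals (filled where the adjusted p is under 0.05), the small marks are the single times with 1 array per genotype, and the grey band holds the middle 90% of all probes tested, from -1.48 to 1.73. PIDD1 lies beyond the band, and CASP1 and CASP2 lie within it with intervals that leave out 0. The interval of APAF1 (0.19 to 1.73) also leaves out 0, although its diamond is open. CASP8, CASP9 and CASP10 have single times on both sides of 0.

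PIDD1, the scaffold of the PIDDosome, had the largest difference of the 8 members. On p53+/+ arrays it read 2.51 (labelled 0 h), 4.98 (12 h), 5.81 (24 h) and 5.34 (48 h), and in p53-/- cells 2.32, 2.74, 3.31 and 3.05. Every treated p53+/+ array was above every p53-/- array, and both genotypes had their highest value at 24 h. No neighbouring pair in the order of the 8 arrays lay within 2 technical SDs, a measure of spot noise taken from probes printed in 10 spots. The differences between genotypes were 2.24, 2.50 and 2.29 at the 3 treated times (4.73-, 5.66- and 4.89-fold) and 0.19 at 0 h. limma gave an adjusted p of 0.00343 for the treated arrays, which rose to 0.0634 when the 24 h arrays were left out. In p53-/- cells PIDD1 changed by 0.42, 0.99 and 0.73, each under 2-fold, and in p53+/+ cells by 2.47, 3.30 and 2.83 from the labelled 0 h array and by 2.66, 3.49 and 3.02 from the p53-/- 0 h array.

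CASP2, the protease that PIDD1 recruits, differed the other way. Its chosen probe read 0.30 on the labelled p53+/+ 0 h array, then -0.35, -0.46 and -0.40, whereas p53-/- cells went from -0.11 to 0.86, 0.84 and 0.78. The treated groups did not overlap, as with PIDD1, CASP1 and APAF1, which held for 41.5% of all probes tested (25% with p53+/+ higher and 16.6% with p53+/+ lower). Within each genotype the 3 treated arrays lay within 2 technical SDs of their neighbours. The genotype difference was -1.20, -1.31 and -1.18 at 12, 24 and 48 h (2.30-, 2.47- and 2.26-fold lower) and 0.41 at 0 h. The adjusted p from limma was 0.00489, and 0.131 without the 24 h arrays. The p53-/- changes of 0.96, 0.95 and 0.88 stayed just under 2-fold. The p53+/+ changes were -0.64, -0.76 and -0.70 from the labelled 0 h array and -0.24, -0.35 and -0.29 from the p53-/- 0 h array, so their direction was the same from both. A second CASP2 probe, assigned to the same transcript and reading -2.68 to -1.94, gave a treated difference of -0.30 ± 0.23 (adjusted p = 0.407, limma), and the probes therefore disagreed on the size of the difference. CRADD, which bridges PIDD1 and CASP2, read 2.59, 1.27, 1.02 and 1.45 in p53+/+ and 2.05, 2.03, 1.50 and 1.64 in p53-/- cells, a treated difference of -0.48 ± 0.22 (adjusted p = 0.184, limma).

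**Figure D2:**
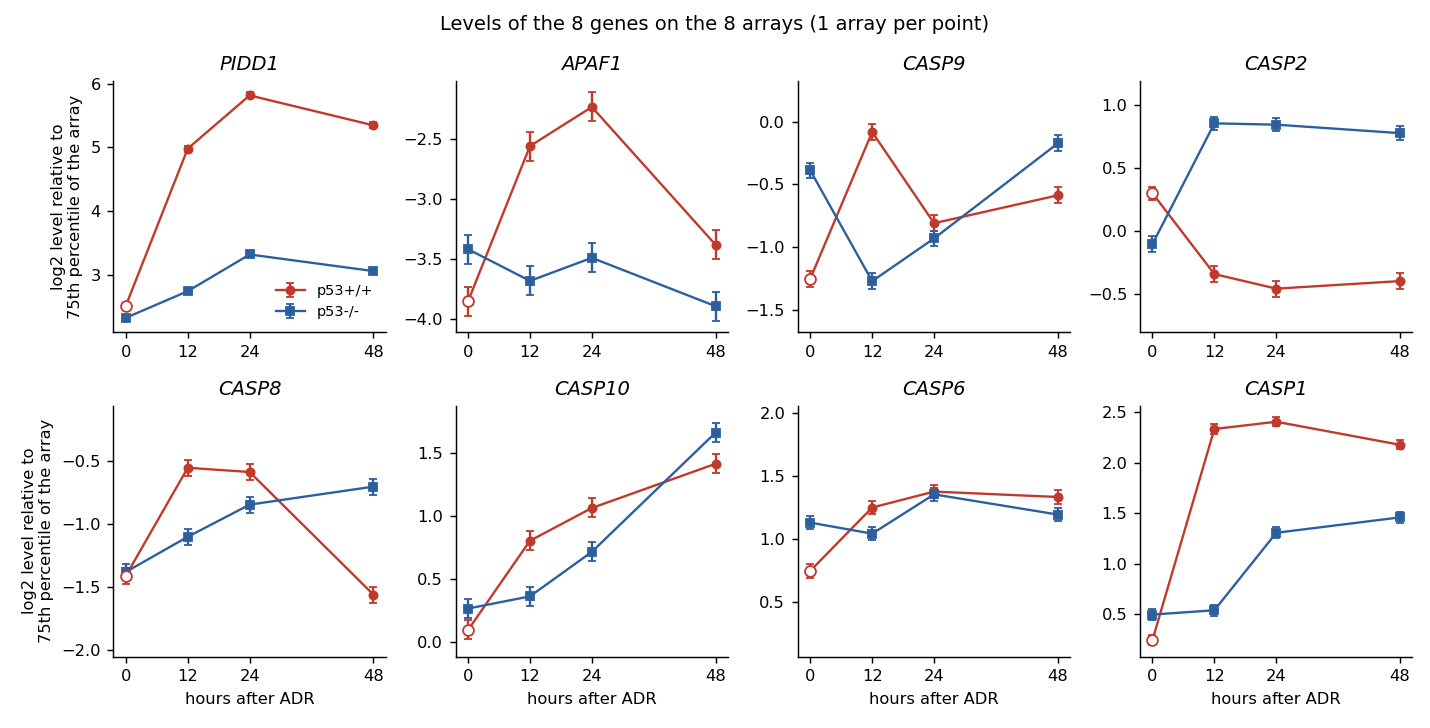
Each panel is a member and plots its log2 level relative to the array's 75th percentile against hours after ADR, in p53+/+ (red circles) and p53-/- cells (blue squares), with 1 array per point. Bars are 1 technical SD of the probe mean, the open circle is the labelled p53+/+ 0 h array, and the y axes differ between panels. PIDD1, CASP1 and APAF1 lie higher in p53+/+ cells at all 3 treated times, CASP2 lies lower, and the lines of CASP8, CASP9 and CASP10 cross between 24 and 48 h.

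APAF1, the ring-forming protein of the apoptosome, was higher in p53+/+ cells at each treated time but did not pass the test. It read -3.85 on the labelled p53+/+ 0 h array, then -2.56, -2.23 and -3.38, against -3.42, -3.68, -3.49 and -3.89 in p53-/- cells. The treated p53+/+ arrays were all above the treated p53-/- arrays, but the 48 h array was within 2 technical SDs of the p53-/- 0 h array. The differences in time order were 1.12, 1.26 and 0.51, and the fit gave 0.96 ± 0.32 (1.95-fold) with an adjusted p of 0.0864 from limma. The call depended on the processing, and 5 of 15 alternatives called it, with adjusted p from limma between 0.0145 and 0.477 over the 15. Without the p53+/+ 48 h array the difference was 1.29 (adjusted p = 0.0202), and it was also called without both 48 h arrays. The others were normexp background correction (0.80), a signal floor and a filter for probes well above background on every array. The floor and the filter left the difference at 0.96. From the labelled 0 h array the p53+/+ changes were 1.29, 1.62 and 0.47, and from the p53-/- 0 h array 0.86, 1.18 and 0.04, while p53-/- cells changed by -0.26, -0.07 and -0.48.

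CASP9, the protease of the apoptosome, did not keep a direction. It read -1.25 on the labelled p53+/+ 0 h array and -0.08, -0.81 and -0.59 after ADR, and -0.39, -1.27, -0.93 and -0.17 in p53-/- cells. The p53+/+ value was above the p53-/- value by 1.19 at 12 h (2.28-fold) and by 0.12 at 24 h, and it was below it at 48 h (-0.41) and at 0 h (-0.86). The fit over treated arrays gave 0.30 ± 0.34 with a 95% interval of -0.52 to 1.11 (adjusted p = 0.589, limma). Its 2.25-fold rise at 12 h from the labelled 0 h array was 1.24-fold from the p53-/- 0 h array.

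Of the death receptor caspases, CASP8 showed a difference in time course. In p53+/+ cells it read -1.41 on the labelled 0 h array, -0.55 and -0.58 at 12 and 24 h and -1.56 at 48 h, whereas in p53-/- cells it was -1.38, -1.10, -0.84 and -0.70, each later array higher than the one before. Between 24 and 48 h it moved by -0.98 in p53+/+ and by 0.14 in p53-/- cells. The genotype difference thus ran from 0.55 at 12 h through 0.26 to -0.86 at 48 h, and the fit gave -0.02 ± 0.32 (95% interval -0.77 to 0.74, adjusted p = 0.978, limma). CASP8 was the lowest on the p53+/+ 48 h array, the array without spike-in signal, and with 1 array per time this turn was not tested.

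CASP10, the relative of CASP8, gave different values from its probes. The chosen probe, printed in 1 spot, read 0.09, 0.80, 1.07 and 1.42 in p53+/+ and 0.27, 0.36, 0.72 and 1.67 in p53-/- cells, where both genotypes were highest at 48 h, at 2.50- and 2.64-fold of their own 0 h arrays. Its treated difference was 0.18 ± 0.37 (95% interval -0.70 to 1.06, adjusted p = 0.775, limma). A second probe of the same transcript, in 2 spots, was not well above background on either 0 h array or in p53-/- cells at 12 h. In p53+/+ cells it read -2.61, -2.52 and -2.73 after ADR, and in p53-/- cells it read -4.36 at 24 h and -3.45 at 48 h. At 12 h the p53+/+ array was thus at least 7.56-fold higher, at 24 h 3.58-fold and at 48 h 1.64-fold, and limma gave 1.83 ± 0.50 (adjusted p = 0.0498) for the treated arrays. Against the 0 h array of its genotype this probe was at least 5.86-, 6.22- and 5.39-fold higher in p53+/+ cells at 12, 24 and 48 h, and at least 1.84- and 3.48-fold higher in p53-/- cells at 24 and 48 h. The other 2 probes, assigned to another CASP10 transcript, were not well above background on any array. The call for this gene thus depended on the probe. Probe sequences and positions were not at hand, and which part of the gene each probe reads was not tested.

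**Figure D3:**
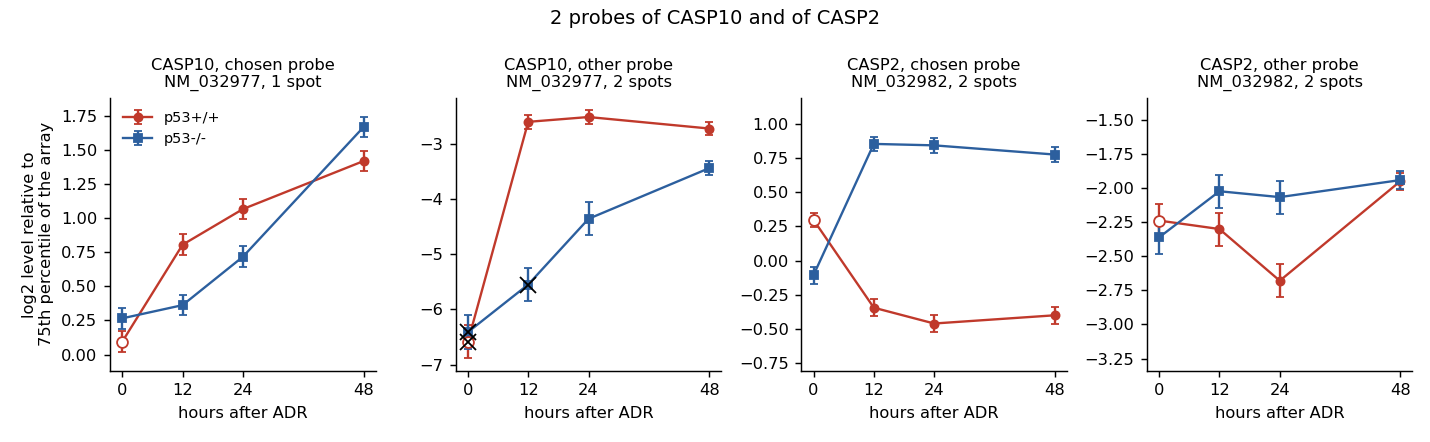
The panels plot the chosen and the other measured probe of CASP10 and of CASP2, as log2 level relative to the array's 75th percentile against hours after ADR, in p53+/+ (red) and p53-/- cells (blue) with 1 array per point. Bars are 1 technical SD, the open circle is the labelled p53+/+ 0 h array, crosses mark values not well above background, and the y axes differ. The second CASP10 probe separates the genotypes at 12 h, where the chosen one differs by 0.44, and the second CASP2 probe separates them less than the chosen one.

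CASP6, an executioner that cuts nuclear lamins, varied least. It read 0.75 on the labelled p53+/+ 0 h array and 1.25, 1.38 and 1.33 after ADR, and 1.13, 1.04, 1.35 and 1.19 in p53-/- cells. The groups overlapped, and 6 of the 7 neighbouring pairs in the order of the arrays lay within 2 technical SDs. The treated difference was 0.12 ± 0.18, with a 95% interval of -0.30 to 0.54 (adjusted p = 0.671, limma). From the labelled 0 h array p53+/+ cells changed by 0.50 to 0.63, and from the p53-/- 0 h array by 0.12 to 0.25.

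CASP1, the inflammasome protease, was higher in p53+/+ cells at all 3 treated times. It read 0.24 on the labelled p53+/+ 0 h array and 2.34, 2.41 and 2.18 after ADR. In p53-/- cells it was 0.49 and 0.54 at 0 and 12 h and reached 1.31 and 1.46 at 24 and 48 h. The groups did not overlap, but the gap closed from 1.80 at 12 h (3.48-fold) to 1.10 at 24 h and 0.72 at 48 h (1.65-fold), as p53-/- cells moved up by 0.77 between 12 and 24 h and p53+/+ cells by 0.07. The adjusted p from limma was 0.0295. This call held in 8 of 15 alternatives: it was lost without scaling (0.61, adjusted p = 0.174), with spike-in scaling (0.62, 0.207), without the p53+/+ 48 h array (1.27, 0.0548), with time point as a block (0.0502) and when any treated time was left out (0.0601 to 0.211). The direction was positive in all 15. CARD16 and CARD17, close relatives that lie beside CASP1, had no matched probe, and whether the CASP1 probe also reads them was not tested.

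Counted by size relative to the 75th percentile, p53+/+ cells had more members past 2-fold than p53-/- cells. From the labelled 0 h array, 4 of 8 members rose by at least 2-fold at 12 h (CASP1, CASP9, APAF1 and PIDD1), 3 at 24 h (CASP1, APAF1 and PIDD1) and 3 at 48 h (CASP1, CASP10 and PIDD1), where 11.8%, 14.3% and 15.9% of all probes did, and none fell, where 10.4%, 14.6% and 12.5% did. Taken from the p53-/- 0 h array instead, the counts were 2, 3 and 3, without CASP9 and APAF1 at 12 h, against 12.3%, 13.9% and 15.6% of all probes. In p53-/- cells no member rose at 12 or 24 h and only CASP10 did at 48 h, where 3.8%, 7.98% and 12.9% of all probes rose, and none fell, where 5.28%, 5.2% and 7.45% did. CASP1 and PIDD1 passed at all 3 times in p53+/+ cells with either baseline, as did 7.37% of all probes from the labelled array and 7.22% from the p53-/- one, and no member did in p53-/- cells (2.04% of all probes). The order of the genotypes turned with the scaling: summed over the 3 times there were 10 rises in p53+/+ and 1 in p53-/- cells. Without scaling, where the brighter treated p53-/- arrays are taken as they are, there were 7 and 9. With spike-in scaling there were 6 and 9, where the 6 came from 12 and 24 h alone. The shares of all probes under these 2 scalings are not given here, so these counts cannot be read as particular to the members. The single-time comparisons have no test, and those that share a 0 h array are not independent. The difference between genotypes in the change after ADR was tested over all 8 arrays, and none of the members passed (limma, adjusted p 0.0671 for CASP2, 0.118 for PIDD1, 0.25 for CASP1 and 0.333 or more for the other members), where 1.69% of 28947 probes did. At an unadjusted p under 0.05 it held for 3 of the 8, CASP1, CASP2 and PIDD1, and for 17.1% of all probes. For CASP2 (by its chosen probe, not by its second one) and APAF1, 2 of the 8, all 3 changes were opposite in the genotypes, as for 21.5% of all probes. The test rests on the labelled p53+/+ 0 h array and on 1 array per genotype at 0 h.

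**Figure D4:**
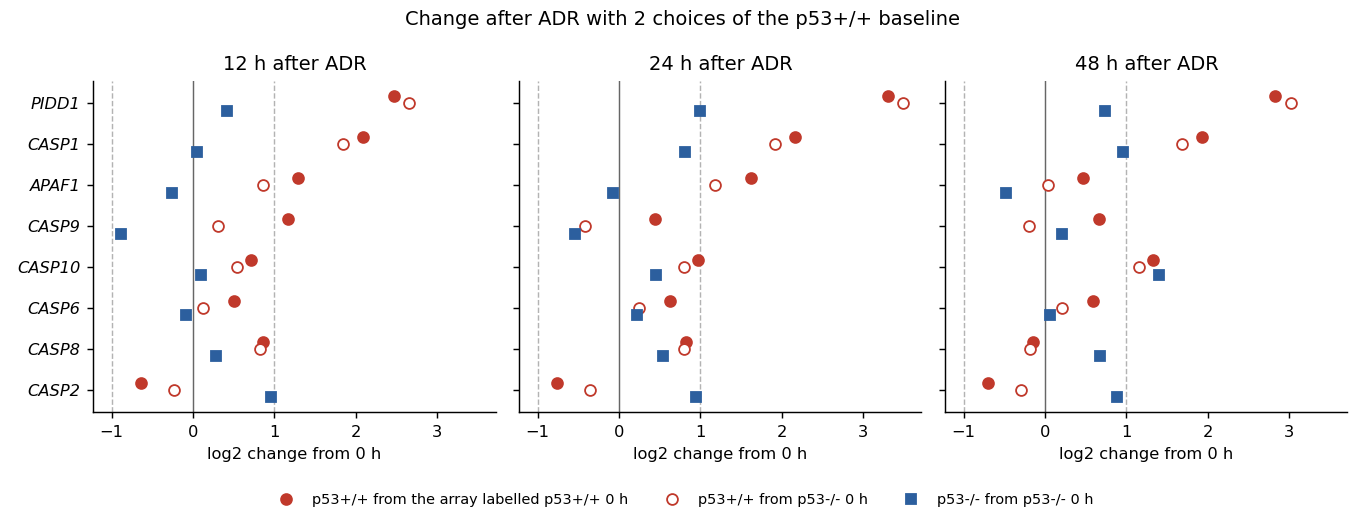
The panels, one for each treated time, plot the log2 change of each member in p53+/+ cells from the labelled p53+/+ 0 h array (filled circles) and from the p53-/- 0 h array (open circles), and in p53-/- cells from their own 0 h array (squares), with 1 array per value and dashed lines at 2-fold. PIDD1 and CASP1 stay past 2-fold in p53+/+ cells with both baselines at all 3 times, CASP9 at 12 h does so with the labelled baseline alone, and CASP10 at 48 h reaches 2-fold in both genotypes.

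Between genotypes, 4 members were at least 2-fold higher in p53+/+ cells at 12 h (CASP1, CASP9, APAF1 and PIDD1), 3 at 24 h (CASP1, APAF1 and PIDD1) and PIDD1 alone at 48 h, where 11.7%, 11.4% and 15.5% of all probes were. CASP2 alone was at least 2-fold lower, at each of the 3 times, where 8.67%, 13.6% and 14.1% of all probes were. At 0 h no member differed by 2-fold, where 4.38% of all probes were higher and 4.77% lower. At all 3 treated times PIDD1 was higher and CASP2 lower by at least 2-fold, as were 5.23% and 4.41% of all probes.

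The pathway around the members was described with 6 lists, 55 genes in all of which 53 had a probe. Neither of the 2 other caspases tested and none of 6 apoptosome and PIDDosome partners passed limma's test over the treated arrays, where 17.9% of all probes did. CASP12 and CASP14 were not well above background on any array. CASP4, the inflammatory caspase that senses lipopolysaccharide, had a difference of 0.33 ± 0.24 (adjusted p = 0.374). CYCS, cytochrome c, had a value of -0.46 ± 0.29 (adjusted p = 0.309) from its chosen probe, and its many pseudogenes make its signal uncertain. The median difference of the partners was -0.47, against 0.09 over all probes.

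Among 8 death receptor adaptors, 2 were lower in p53+/+ cells and none was higher, where 7.48% and 10.4% of all probes were. CASP8AP2, which binds CASP8 and also serves in histone gene expression, read -1.31 on the labelled p53+/+ 0 h array, then -2.27, -2.33 and -2.84, and -1.92, -1.03, -1.07 and -1.08 in p53-/- cells. It differed by -1.42 ± 0.21 (adjusted p = 0.00735, limma). RIPK1, the kinase at the branch of survival and death signals, differed by -1.02 ± 0.19 (adjusted p = 0.0164). FADD, the adaptor itself, had a difference of -0.02 ± 0.22 (adjusted p = 0.958), and CFLAR, the catalytically dead relative that holds CASP8 back, one of 0.60 ± 0.24 (adjusted p = 0.133).

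Of 9 caspase inhibitors tested, 1 was higher and 1 lower, where 10.4% and 7.48% of all probes were. CARD18, which binds CASP1 through its CARD domain, was not well above background on either 0 h array and read -1.23, 0.57 and 1.48 in p53+/+ cells after ADR. In p53-/- cells it was well above background at 48 h alone (-4.22), so that the p53+/+ arrays were at least 19.7-fold higher at 12 h and at least 64.3-fold at 24 h. The adjusted p from limma was 0.00929, in a fit that took the dim p53-/- readings at 12 and 24 h (-7.30 and -5.44) as measured. BIRC2, a ubiquitin ligase of the inhibitor family, differed by -0.85 ± 0.18 (adjusted p = 0.0245). XIAP, a direct inhibitor of CASP9, had a difference of 0.16 ± 0.21 (adjusted p = 0.642). BIRC5, survivin, which also serves in mitosis, read 2.85, 2.85 and -4.76 in p53+/+ cells, the last not well above background, and 4.77, 5.01 and 5.48 in p53-/- cells. The difference passed 2-fold at each time, but limma's adjusted p was 0.145.

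Of 11 inflammasome genes, 3 were higher and 1 was lower in p53+/+ cells, where 10.4% of all probes were higher and 7.48% lower. IL1B, a cytokine that CASP1 cuts, read 2.67 on the labelled p53+/+ 0 h array and -1.39 on the p53-/- 0 h array, then 4.15, 5.13 and 5.64 against 1.17, 0.70 and 1.24, a treated difference of 3.94 ± 0.40 (adjusted p = 0.00219, limma). The labelled p53+/+ 0 h array was already 4.06 above the p53-/- 0 h array for this gene (16.7-fold), and its interaction estimate was -0.12. Both values rest on 1 array per genotype at 0 h and on the array whose genotype label is in doubt. Whether the genotypes differed before ADR was therefore not tested. NLRP3, the sensor of the best known inflammasome, differed by 2.28 ± 0.58 (adjusted p = 0.0399), and GSDMD, the pore former cut by CASP1, by 1.53 ± 0.27 (adjusted p = 0.0127). PYCARD, the adaptor between sensor and CASP1, was lower, with -1.41, -1.15 and -0.67 in treated p53+/+ and 0.70, 0.35 and 0.75 in treated p53-/- cells (difference -1.67 ± 0.25, adjusted p = 0.00767). On the treated arrays NLRP3, CASP1, IL1B and GSDMD were thus higher and PYCARD lower, and of these IL1B alone differed by at least 2-fold at 0 h. The median of this list was 0.47.

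Of 13 substrates and nucleases, 1 was higher and 3 were lower, where 10.4% and 7.48% of all probes were. GSDME, a pore former of the gasdermin family, read 1.53, 2.09 and 1.91 in treated p53+/+ cells and -0.59 to -0.41 in treated p53-/- cells (difference 2.35 ± 0.21, adjusted p = 0.00138, limma). LMNB1, a nuclear lamin, was lower, at -0.12, -1.18 and -2.91 against 1.92, 1.71 and 1.27 (difference -3.04 ± 0.67, adjusted p = 0.0259). PARP1, a DNA repair enzyme, and BID, which carries the CASP8 signal to mitochondria, differed by -1.10 ± 0.22 (adjusted p = 0.0204) and -0.92 ± 0.23 (adjusted p = 0.0391). Over the 49 genes of the 6 lists that were tested, 5 were higher and 7 lower, where 10.4% and 7.48% of all probes were. All 12 kept their sign with each other scaling, and GSDMD and NLRP3 lost their call without scaling and with spike-in scaling. None of the 12 was called without the 24 h arrays. Without the 12 h arrays 7 were, all but BID, BIRC2, NLRP3, PYCARD and RIPK1, and without the 48 h arrays 8 were, all but BID, BIRC2, GSDMD and PARP1. Without the p53+/+ 48 h array BID and NLRP3 lost their call.

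**Figure D5:**
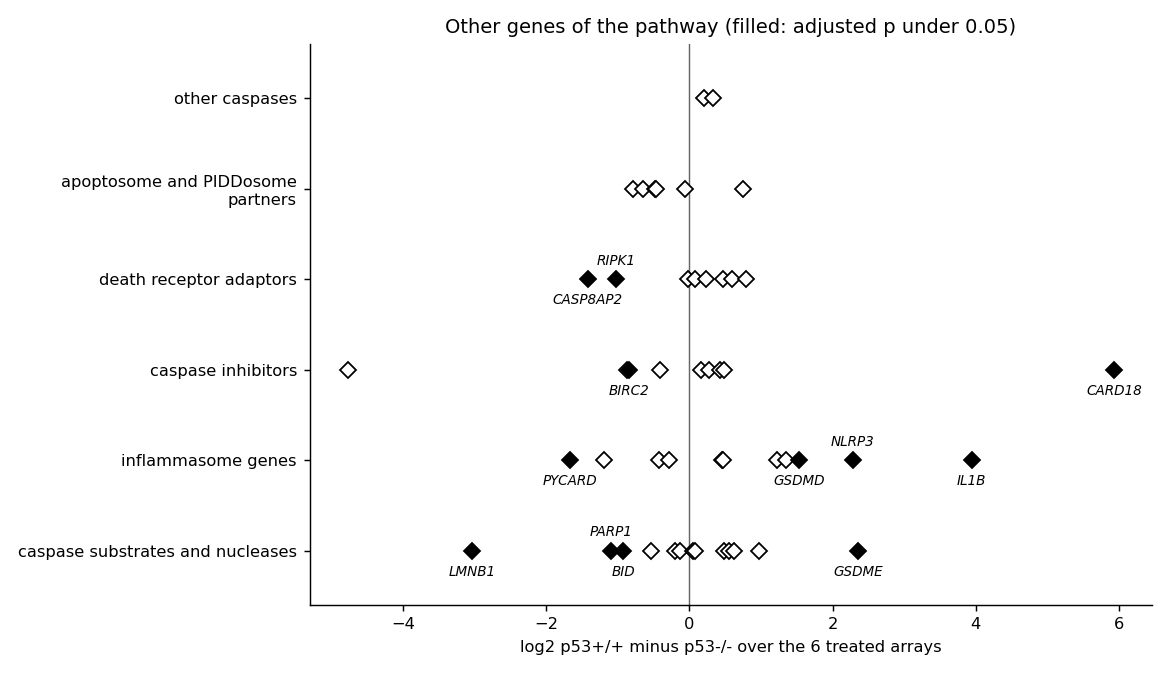
Each diamond is a gene of the list named on the y axis, by its chosen probe, and the x axis is limma's log2 difference of p53+/+ minus p53-/- cells over the 6 treated arrays. Filled and named genes have an adjusted p under 0.05. The other caspases and the apoptosome and PIDDosome partners hold no filled diamond, and the inflammasome genes have filled diamonds on both sides of 0, from PYCARD at -1.67 to IL1B at 3.94.

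Genes whose level followed that of a member most closely over the 8 arrays were found among 6765 genes well above background on all arrays with a range of at least 1 on the log2 scale. For PIDD1 they were SEC11C (Pearson r = 0.997), GNAI1 (0.997) and ALS2CL (0.995), for CASP1 they were GJB5 (0.992), RAB17 (0.991) and RAB29 (0.991), and for CASP2 they were ARTN (0.990), UCK1 (0.983) and AP3M2 (0.982). For APAF1 the highest was FAM185A at 0.974, and for CASP10, CASP6, CASP9 and CASP8 the highest were OSBP at 0.976, LYST at 0.954, FAM117A at 0.957 and PLCXD1 at 0.948. Without the labelled p53+/+ 0 h array these values lay between 0.894 for LYST and 0.998 for SEC11C. The 8 points share genotype, slide and scaling, and the values are a description of these arrays.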

How the data were processed

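RNA of 8 samples was measured on 8 single-colour (Cy3) Agilent SurePrint G3 arrays, 1 per genotype and time, and samples were grouped by their labels. The authors deposited the output of Agilent Feature Extraction 10.7.3.1 for each array, whose header names hg19. The processed signal used here is an intensity on a linear scale, corrected for background by that software before the authors deposited it. The values in a table of the whole series were identical (503808 of 503808 equal within a relative tolerance of 1e-05). Of 58717 spots that were not controls, those marked as uneven or as outliers (233 to 370 per array) were left out. Log2 signals, less that of the array's 75th percentile, were averaged by probe, and a probe with most spots well above background was taken as such. Accessions were matched to RefSeq symbols (GRCh38.p14) for 27227 of 42391 probes (64.2%).

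The fits took probes that stood well above background at least once and used limma 3.58.1 (lmFit, eBayes) in R 4.3.3 with 4 residual degrees of freedom and Benjamini-Hochberg adjustment over all of them. The first fit compared genotypes over the 6 treated arrays, and a second one tested the interaction of genotype and treatment over all 8. A change of at least 2-fold was counted at single times. The technical SD came from 999 probes printed in 10 spots. "At least" folds were taken against the array's lowest signal among probes well above background, or against the measured value where that was higher, as for CARD18 at 24 h. Other software was numpy 2.4.6, pandas 2.3.3 and matplotlib 3.10.9 in Python 3.11.15, and both fits were checked on simulated data. The number of arrays limits the precision.

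The members, lists and tests were chosen with earlier results of these data known. Named genes were all members with all their probes, from each list up to 3 genes at least 2-fold different in 1 direction at all 3 treated times, 7 fixed pathway genes, 2 checks of the labels, and for each member the 3 genes most like it. Other genes named (RIPK1, BIRC2, GSDMD, PARP1, BID, DIABLO, HTRA2, ENDOG, NAIP, MEFV, LMNA and the single markers) were chosen after their values were seen. Some genes of the lists and 1 check of the labels are not reported here. The alternatives were other scalings, background correction (normexp with offset 50, or a signal floor), filters, rules for several probes, a 3-fold rule, time point as a block, arrays left out and the p53-/- 0 h baseline.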

Additional observations from a re-analysis of the deposited data

Results flagged for a closer look

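For 2 of the 8 members and 13 of 49 genes of the lists, all 3 changes after ADR in p53+/+ cells, taken from the labelled p53+/+ 0 h array, went one way and all 3 in p53-/- cells the other, as for 21.5% of all probes. The differences between the mean changes (p53+/+ minus p53-/-, log2) were -1.633 for CASP2 and 1.398 for APAF1. The interaction was tested with limma and passed for neither, with adjusted p of 0.0671 and 0.333. Against the p53-/- 0 h array instead, CASP2 (mean p53+/+ change -0.30) and APAF1 (0.69) kept the direction of the p53+/+ change at all 3 times. For APAF1 this change was 0.04 at 48 h, within 2 technical SDs. So were its p53-/- changes of -0.26 and -0.07 at 12 and 24 h, and the sign of such values is uncertain. For CASP2 this holds for the chosen probe alone. Its second probe changed in p53+/+ cells by -0.06, -0.44 and 0.29 from the labelled 0 h array. From the p53-/- 0 h array the changes of that probe were 0.06, -0.32 and 0.41, and its interaction estimate was -0.42.

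Among the list genes the difference was positive for DIABLO (0.9218), CFLAR (1.1), NAIP (1.404), MEFV (1.324), GSDMD (1.877) and LMNA (0.5754). It was negative for HTRA2 (-1.221), ENDOG (-0.9838), RIPK1 (-1.492), CASP8AP2 (-2.031), BIRC2 (-1.43), PARP1 (-1.334) and BID (-1.369). These values are from the chosen probes. A second DIABLO probe, well above background on all 8 arrays, went the other way (-0.637). From 0 to 48 h it read 2.80, 2.63, 2.55 and 2.79 in p53+/+ and 2.52, 2.98, 2.92 and 3.15 in p53-/- cells. The other CFLAR probes gave 1.03 and -0.0485. Other probes of BID, LMNA and PARP1 kept the sign. NAIP was not well above background on the labelled p53+/+ 0 h array (-4.98) or in p53+/+ cells at 24 h (-4.24), so its p53+/+ changes start from a dim value. The interaction passed for 0 of the 13, with adjusted p from 0.0737 for CASP8AP2 to 0.473 for LMNA. With the p53-/- 0 h array as baseline 9 of the 13 kept the direction of the p53+/+ change at all 3 times, and CFLAR, NAIP, MEFV and HTRA2 did not. Among those that kept it, DIABLO changed by only 0.003, 0.14 and 0.10, each within 2 technical SDs (1 SD was 0.09).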

How the results depend on the processing

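No member changed direction past its threshold under any of 15 alternatives to the tests, and CASP1, CASP2, APAF1 and PIDD1 kept the sign of their treated difference in all 15. CASP6, CASP8, CASP9 and CASP10 changed sign in some and were not called, other than CASP10 with all its probes averaged, a mean that takes in 2 probes not well above background on any array. The call of PIDD1 (1.71 to 2.40) and of CASP2 (-1.88 to -0.76) held in 14 and was lost without the 24 h arrays, and that of CASP1 held in 8. The number of members called, 3, was 0 to 3 with each treated time left out: 0 without the 24 h arrays, CASP2 and PIDD1 without 12 h, and CASP2, PIDD1 and APAF1 without 48 h. Of all probes 5095 were called, against 9407 without scaling, 7838 with spike-in scaling, 9517 with normexp, 8806 with a signal floor, 12536 with no filter on dim probes and 294 to 2849 with each treated time left out, in fits of fewer arrays. Calls higher in p53+/+ cells made up 58.2%, and 48.2% with quantile normalization, 45.1% with median scaling, 14.6% without scaling and with spike-in scaling, 72.6% with normexp, 70.1% with a floor and 78.4% with no filter. The interaction was called for 488 probes, and for 1296 without scaling, 831 with spike-in scaling, 1251 with normexp, 914 with a floor, 60 with time point as a block and 0 to 80 with each treated time left out (0 without 24 h, where 3019 had an unadjusted p under 0.05). Of the members it called 0, and 1, CASP2, without scaling, with normexp, with a floor and for probes well above background on every array.

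Over the 3 times, p53+/+ members passed 2-fold upward 10 times (6 with spike-in scaling, which leaves out 48 h) and downward 0 times (2 without scaling, 1 with spike-in scaling). p53-/- members did so upward 1 time, 2 times with quantile normalization, median scaling or normexp, 9 times without scaling or with spike-in scaling, and 0 times at 3-fold. Between genotypes 8 values were higher (4 without scaling, 3 with spike-in scaling, 5 with normexp, 4 at 3-fold) and 3 were lower (6 without scaling, 0 with all probes of a gene averaged, 0 at 3-fold). The shares of all probes past the fold rule under these alternatives are not given here, so the counts cannot be read as particular to the members. Without scaling the median genotype difference of all probes over the treated arrays moved to -0.51. Why the counts moved between settings was not tested. No paired analysis was possible by replicate number, because each group held 1 array. With time point as a block, which pairs the treated arrays of the genotypes, 4395 probes and 2 members were called, CASP1 not among them. Dim signal limits the second CASP10 probe, well above background on 5 of 8 arrays. The APAF1 probe was low (-3.89 to -2.23) but well above background on all 8. With a signal floor its difference stayed at 0.96, although its call changed.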
